A study of Homo sapiens with 8 samples.

Results

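The genes examined were CASP2, CASP4, CASP6, CASP8, CASP9, CASP10, APAF1 and CFLAR, which are 8 of the 16474 genes with at least 1 count in these libraries. They were selected by gene name, as the transcripts that GENCODE version 44 assigns to each gene. RNA was measured by nanopore cDNA sequencing in MOLM-13, a human acute myeloid leukemia cell line. All cells carried a lentiviral construct with constitutive mCherry and a doxycycline-inducible promoter driving ΔLNGFR and an shRNA, and all were treated with doxycycline for 9 days. In 4 libraries the shRNA targeted PTBP1 (shPTBP1) and in 4 libraries it was a scrambled sequence (shControl), and the labels call the 4 libraries of each group biological replicates. A single shRNA was used against PTBP1, so effects of that shRNA on other transcripts cannot be told apart from effects of the knockdown (KD).

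Caspases are cysteine proteases that are made as inactive precursors and cut their substrates during cell death or inflammation. CASP8 and CASP10 are initiators that are recruited to death receptors through the adaptor FADD, and CFLAR (c-FLIP) is a related protein without protease activity that enters the same complex and restrains CASP8. CASP9 is the initiator of the mitochondrial pathway and is activated on APAF1 after cytochrome c release, whereas CASP2 is activated on the PIDDosome, CASP6 is an effector caspase, and CASP4 is an inflammatory caspase that senses lipopolysaccharide. Several of these genes make alternatively spliced products with different activity, and PTBP1 is an RNA-binding splicing repressor that binds pyrimidine-rich sequence, including in the intron after an alternative CASP2 exon. The question of the comparison was whether loss of PTBP1 changes the expression and splicing of its target genes.

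After PTBP1 KD, CFLAR RNA rose to 2.04 times its control level and CASP2 RNA fell to 0.609 times. Both calls were close to the threshold. That of CASP2 was lost under DESeq2 and in 2 of the 8 fits that left out 1 library. That of CFLAR was lost with limma-trend and in 5 of those 8 fits, and DESeq2 gave it no adjusted p. CFLAR-202, the transcript that encodes the short form of the protein, rose in a test across transcripts. It entered that test only through the shPTBP1 libraries. The summed counts of all other CFLAR transcripts did not pass the test. They were at most 10 in any library, so a change in them could have been missed. The level of CASP8 did not pass the test, but a 45-base CASP8 exon was included in 33.2% of spanning counts with shPTBP1 and in 52.1% with shControl. This difference did not pass an adjustment over all exons, and among transcripts that share the first exon of CASP8-202 it was -9.63 points with overlapping libraries. CASP4, CASP6 and CASP9 did not pass the test at the gene level, and APAF1 and CASP10 had too few counts to be tested.

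The sequences that distinguish these products are given from GRCh38, 5′ to 3′ on the transcribed strand, with exonic bases in capitals and intronic bases in lower case. The CFLAR pair is shown because it separates the short form from the long form. The last coding bases of CFLAR-202 (ENST00000341222.10) are 57 bases at the start of its last exon, chr2:201141374-201141430, and CFLAR-201 (ENST00000309955.8) instead goes on to an exon of 55 bases at chr2:201145378-201145432, each shown with the 100 bases before it.
CFLAR-202 last coding bases: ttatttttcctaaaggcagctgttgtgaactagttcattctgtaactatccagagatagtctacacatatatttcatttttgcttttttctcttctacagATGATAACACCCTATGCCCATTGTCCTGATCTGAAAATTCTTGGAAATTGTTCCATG
CFLAR-201 next exon: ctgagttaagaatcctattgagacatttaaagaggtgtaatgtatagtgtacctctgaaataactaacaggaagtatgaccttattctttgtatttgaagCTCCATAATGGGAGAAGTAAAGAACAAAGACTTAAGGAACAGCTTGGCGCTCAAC
The CASP8 exon, whose length is a multiple of 3, lies at chr2:201272898-201272942 and is shown with 100 bases on each side because its inclusion differed between the groups.
CASP8 exon of 45 bases: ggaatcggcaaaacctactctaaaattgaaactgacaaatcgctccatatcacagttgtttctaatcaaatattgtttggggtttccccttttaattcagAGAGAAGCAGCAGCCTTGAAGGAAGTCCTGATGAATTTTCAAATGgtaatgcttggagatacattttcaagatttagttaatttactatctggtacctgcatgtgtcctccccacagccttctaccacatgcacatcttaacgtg
The CASP2 exon of 61 bases at chr7:143300380-143300440 is shown with the same flanks because it is the alternative exon known for PTBP1 binding in the following intron.
CASP2 exon of 61 bases: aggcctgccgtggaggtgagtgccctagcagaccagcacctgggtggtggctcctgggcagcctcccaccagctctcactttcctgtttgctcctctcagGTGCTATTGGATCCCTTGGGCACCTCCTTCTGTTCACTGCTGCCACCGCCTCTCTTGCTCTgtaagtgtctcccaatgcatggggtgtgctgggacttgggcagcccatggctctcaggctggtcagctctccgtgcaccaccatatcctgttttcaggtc

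The pyrimidine motifs TCTT and CTCTCT, which polypyrimidine tract binding proteins can bind, were counted on the transcribed strand in the 100 bases before and the 100 bases after each exon. The CASP8 exon had no copy of either motif before it and 1 TCTT after it. Of 95138 internal exons of the genes tested, 48.3% have at least 1 TCTT after them. Neither motif was in the 100 bases on either side of the CASP2 exon. Bases within exons and further into the introns were not counted, and the CASP2 exon as printed above itself holds both motifs. The last exon of CFLAR-202 and the next exon of CFLAR-201 each had 1 TCTT before them, and 63.6% of exons have at least 1.

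The targeted gene fell as labelled. PTBP1 had counts of 10, 15, 13 and 23 with shPTBP1 and of 65, 90, 64 and 78 with shControl, and it fell by 2.26 on the log2 scale (SE 0.22) at an edgeR adjusted p of 7.18e-05. The libraries held 1528449 to 1613342 counts, of which 292 to 370 per library came from the 8 genes. All 8 markers of myeloid leukemia cells on the list examined had counts, although SPI1 had 1 count, and of the 5 tested 1 fell, CD4 (-0.47 on the log2 scale, edgeR adjusted p = 0.000597), whose part in the results was not tested. In contrast, the 4 T cell markers were at 0 and the summed B cell, erythroid and epithelial markers were at most 7.99 CPM (library counts scaled to a total of 1000000) in any library. The fibroblast markers summed to 17.1 to 21.1 CPM with shPTBP1 and 12.8 to 19.3 CPM with shControl.

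Of the 8 genes, 6 passed the filter on low counts and entered the edgeR quasi-likelihood fit across all genes, and 2 were called at an adjusted p under 0.05, 1 lower and 1 higher. Among all 7597 genes tested, 421 were called (5.54%), with 3.19% lower and 2.36% higher. The libraries of the groups did not overlap for 4 of the 6 genes tested, CASP2, CASP6, CASP8 and CFLAR, compared with 12.7% of all genes tested. The 6 genes had a median log2 fold change of -0.24, and all genes tested had one of -0.00014. Levels are given as CPM after TMM normalization.

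**Figure D1:**
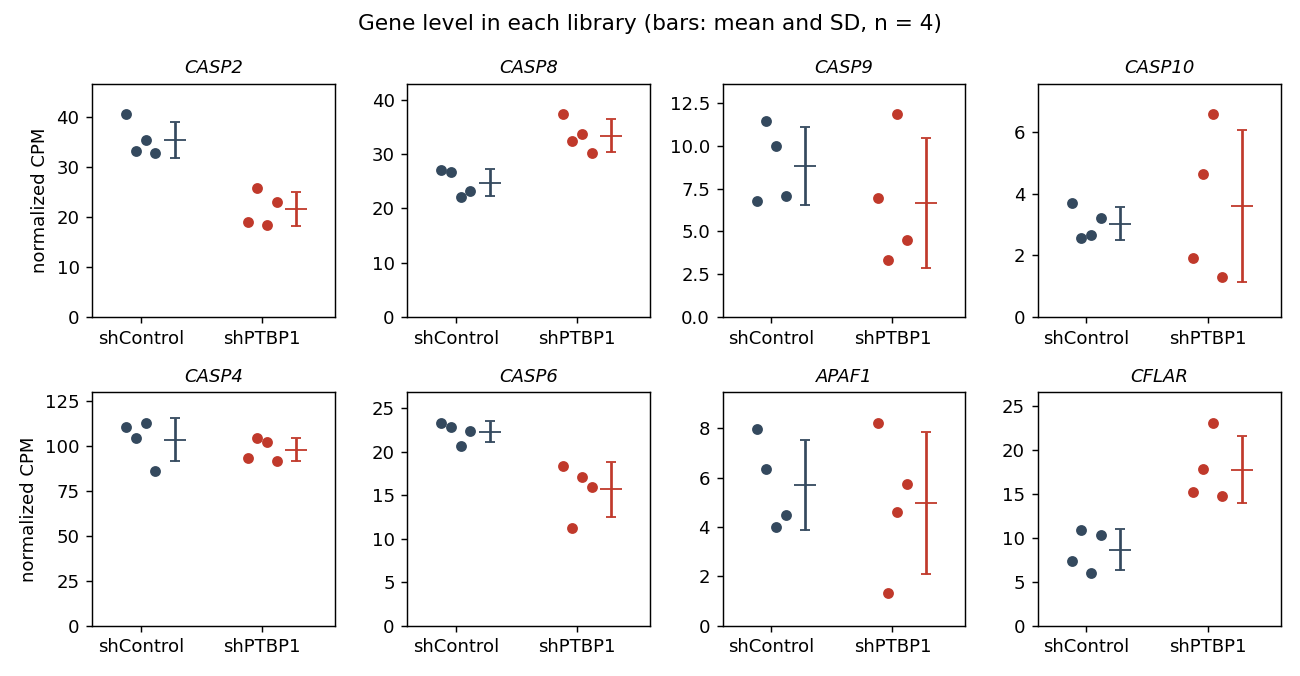
Level of each gene in normalized CPM (vertical axes, from 0) in the 4 shControl and 4 shPTBP1 libraries, with the mean and SD beside the points. CASP2 and CASP6 libraries with shPTBP1 all sit below the control libraries, and CASP8 and CFLAR libraries with shPTBP1 all sit above them.

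Divided by the mean length of the transcripts counted, the order of the levels in control cells ran from CASP4 at 80.2 ± 9.43 CPM per kb (SD, n = 4) through CASP6 at 13.8 ± 0.728, CASP8 at 9.54 ± 0.983, CASP2 at 8.61 ± 0.876, CASP9 at 3.88 ± 1.01 and CFLAR at 2.53 ± 0.679 to APAF1 at 0.842 ± 0.269 and CASP10 at 0.792 ± 0.137 CPM per kb. The control libraries of CASP8 and CASP2 overlapped, as did those of CASP9 and CFLAR and those of APAF1 and CASP10. With shPTBP1, CASP8 at 12.9 ± 1.17 CPM per kb lay above CASP6 at 9.70 ± 1.93, and CFLAR at 5.21 ± 1.12 overlapped CASP2 at 5.24 ± 0.845 CPM per kb. Whether counts of these nanopore reads scale with transcript length was not tested, so the division may not suit these data. The order depends on it. In CPM without the division, CASP2 at 35.4 CPM came next after CASP4 in control cells. CASP8 at 24.7 CPM was then already above CASP6 at 22.4 CPM. The difference between the orders of the groups was not tested.

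CFLAR lies at chr2:201116154-201176687 next to CASP10 and CASP8, and had 24, 27, 35 and 23 counts in the 4 shPTBP1 libraries. In the 4 shControl libraries it had 12, 17, 9 and 16 counts. Every library with shPTBP1 was above every control library. The mean was 17.7 ± 3.82 CPM (SD, n = 4) with shPTBP1 and 8.62 ± 2.31 CPM with shControl, which is 1.03 on the log2 scale (SE 0.25) with an edgeR adjusted p of 0.0308. DESeq2 gave no adjusted p for this gene, and limma-trend on log2(CPM + 1) or log2(CPM + 0.25) did not call it (adjusted p = 0.0533 and 0.0548). The call was lost in 5 of the 8 fits that left out 1 library, with an adjusted p of 0.110 without shPTBP1 replicate 3, 0.0811 without shPTBP1 replicate 2, 0.0763 without shControl replicate 3, 0.0748 without shControl replicate 1 and 0.0557 without shControl replicate 4.

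Of the 24 CFLAR transcripts listed, 7 had counts. CFLAR-202 has 6 exons and a coding sequence of 663 bases for 221 residues, and it ends in the exon printed above, 1283 bases in all. It had 22, 22, 26 and 16 counts with shPTBP1. With shControl it had 6, 7, 7 and 8 counts, and every shPTBP1 library was above every control library, as groups did not overlap for 13% of all transcripts tested. The mean was 14.0 ± 2.83 CPM against 4.49 ± 0.603 CPM. In a test across 10207 transcripts, of which 5.45% were called, CFLAR-202 rose by 1.61 on the log2 scale (SE 0.26) at an edgeR adjusted p of 0.00293. This test was chosen after the values were seen. CFLAR-202 had fewer than the filter's minimum of 10 counts in every shControl library, so it entered the test only through the shPTBP1 libraries. It kept its call in each of 8 fits without 1 library, with adjusted p between 0.00360 and 0.0157, and under DESeq2 (adjusted p = 0.00194).

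The remaining CFLAR transcripts summed to 2, 5, 9 and 7 counts with shPTBP1 and to 6, 10, 2 and 8 with shControl. Their mean was 3.74 ± 1.97 CPM against 4.13 ± 2.16 CPM, and the groups overlapped (log2 fold change -0.15, edgeR adjusted p = 0.919). These sums were at most 10 counts in any library, so a change in them could have gone undetected. The long form, with a coding sequence of 1440 bases, is encoded by CFLAR-201 and CFLAR-207. CFLAR-201 spans 10 exons and 14612 bases and had 0, 4, 0 and 7 counts with shPTBP1 against 0, 6, 0 and 6 with shControl. CFLAR-207 had at most 3 counts in any library. Each group thus held libraries with no count on CFLAR-201.

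As a share of CFLAR counts, CFLAR-202 made up 79.2% ± 9.62 with shPTBP1 and 54.7% ± 15.9 with shControl (SD, n = 4 each). The shares overlapped, since control replicate 3 stood at 77.8% of only 9 counts, and the difference of 24.5 points had an exact two-sided permutation p of 0.0857. The long form made up 15.0% ± 12.1 with shPTBP1 and 29.0% ± 22.0 with shControl (exact permutation p = 0.314). The change in the level of the short-form transcript therefore passed a test, and the change in its share did not. Whether a transcript as long as CFLAR-201 is counted as fully as the shorter CFLAR-202 was not tested. These are therefore shares of counts and may differ from shares of molecules. CFLAR-AS1 is annotated on the opposite strand, and whether the counting used strand is not given in the sources used here.

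**Figure D2:**
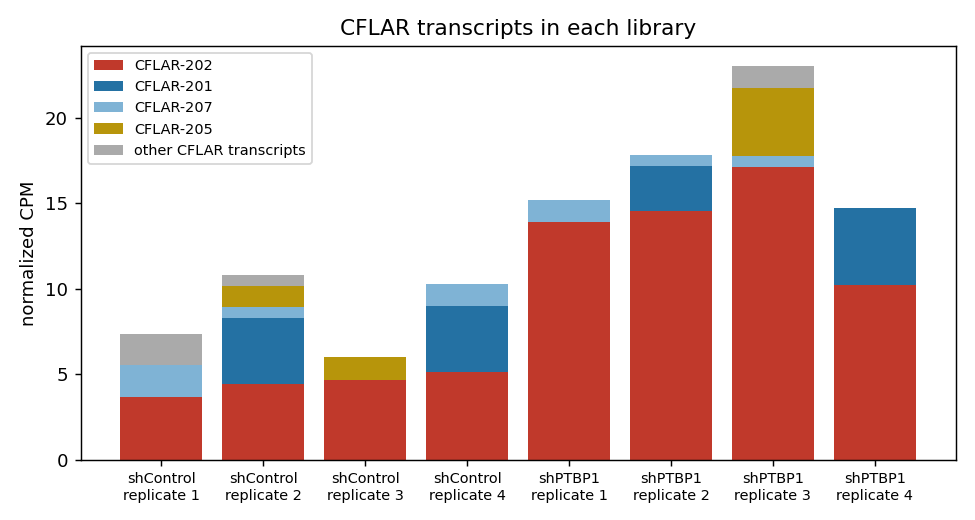
CFLAR transcripts in each library, stacked in normalized CPM on an axis from 0. The CFLAR-202 segment, which encodes the short form, is larger in each of the 4 shPTBP1 libraries than in any control library, and the other segments vary between libraries of both groups.

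CASP8 lies at chr2:201233443-201361836 and had 59, 49, 51 and 47 counts with shPTBP1. With shControl it had 44, 42, 33 and 36 counts. The groups did not overlap, at 33.3 ± 3.02 CPM against 24.7 ± 2.55 CPM, but the gene was not called (log2 fold change 0.43, SE 0.15, edgeR adjusted p = 0.112). CASP8-202 (ENST00000323492.11), the most abundant transcript, has 8 exons and lacks the 45-base exon. It had 26, 23, 23 and 20 counts with shPTBP1 and 15, 16, 13 and 14 with shControl, and all shPTBP1 libraries were above the controls (log2 fold change 0.67, SE 0.19, edgeR adjusted p = 0.0696 across transcripts). Its share of CASP8 counts was 44.7% ± 1.84 with shPTBP1 and 37.6% ± 2.41 with shControl, without overlap (exact permutation p = 0.0286, the smallest that 4 against 4 libraries allow). Shares did not overlap for 10.7% of all isoforms compared.

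The 45-base exon was in 14 of 41, 9 of 34, 10 of 34 and 15 of 35 spanning counts in the shPTBP1 libraries. In the shControl libraries it was in 16 of 31, 15 of 31, 16 of 29 and 17 of 32. Inclusion was thus below every control library in all 4 shPTBP1 libraries. The mean was 33.2% ± 7.16 with shPTBP1 and 52.1% ± 2.86 with shControl, a difference of -18.9 points (exact two-sided permutation p = 0.0286). The other exons of these genes with enough counts were the 4 CASP9 exons described later, which form 1 event and overlapped between the groups. Inclusion did not overlap for 9.10% of the 3474 exons examined in all genes. Adjusted over those 3474 exons, the smallest possible p becomes 0.314, so no single exon could pass. Adjusted over the exons examined in these genes alone, with the 4 CASP9 exons counted separately, the permutation p of the CASP8 exon was 0.143.

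The transcripts that hold this exon also differ in their first exon. CASP8-202 and CASP8-218 start at nearly the same place and differ by the 45-base exon, whereas CASP8-204 and CASP8-207 start upstream and include it. Among counts on coding transcripts, the upstream first exon made up 11.3% ± 4.33 with shPTBP1 and 28.4% ± 8.33 with shControl (exact permutation p = 0.0571), with overlap through control replicate 2 at 16.1% and shPTBP1 replicate 4 at 17.1%. CASP8-207 had 0, 0, 0 and 1 counts with shPTBP1 and 3, 2, 3 and 2 with shControl. Within the transcripts that start as CASP8-202 does, inclusion of the exon was 24.2% ± 3.87 with shPTBP1 and 33.8% ± 4.11 with shControl, a difference of -9.63 points with overlapping libraries (exact permutation p = 0.0571). Whether this difference is smaller than the -18.9 points over all spanning transcripts was not tested.

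The gene-level CASP8 counts included transcripts without a coding sequence. CASP8-217, classed by GENCODE as a retained intron, lies at chr2:201233463-201242925, upstream of the first exons of CASP8-202 and CASP8-204, and had 13, 12, 11 and 10 counts with shPTBP1 against 9, 7, 0 and 2 with shControl. CASP8-219, of the same class and region, summed to 16 counts with shPTBP1 and 14 with shControl. Coding transcripts that start in that region had 1, 1, 1 and 3 counts with shPTBP1 and 0 in each control library. Coding transcripts alone had 41, 34, 34 and 35 counts with shPTBP1 and 31, 31, 29 and 32 with shControl. Their level was 23.3 ± 1.76 CPM against 19.7 ± 0.644 CPM, without overlap (exact permutation p = 0.0286) and with a log2 fold change of 0.24 (edgeR adjusted p = 0.466). The transcripts without a coding sequence stood at 10.04 ± 1.70 CPM against 5.06 ± 2.85 CPM (exact permutation p = 0.0571). As a share of CASP8 counts, the retained-intron class made up 30.0% ± 3.25 with shPTBP1 and 19.7% ± 9.49 with shControl, with overlap (exact permutation p = 0.0857), and the groups did not overlap for 5.6% of transcript classes of all genes. CASP8-217 alone made up 22.3% ± 1.47 against 10.7% ± 9.52, without overlap (exact permutation p = 0.0286). The margin was narrow, 21.3% in shPTBP1 replicate 4 against 20.5% in shControl replicate 1. Shares did not overlap for 10.7% of isoforms under the main filter, which CASP8-217 did not pass. FLACC1 is annotated on the strand opposite CASP8.

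**Figure D3:**
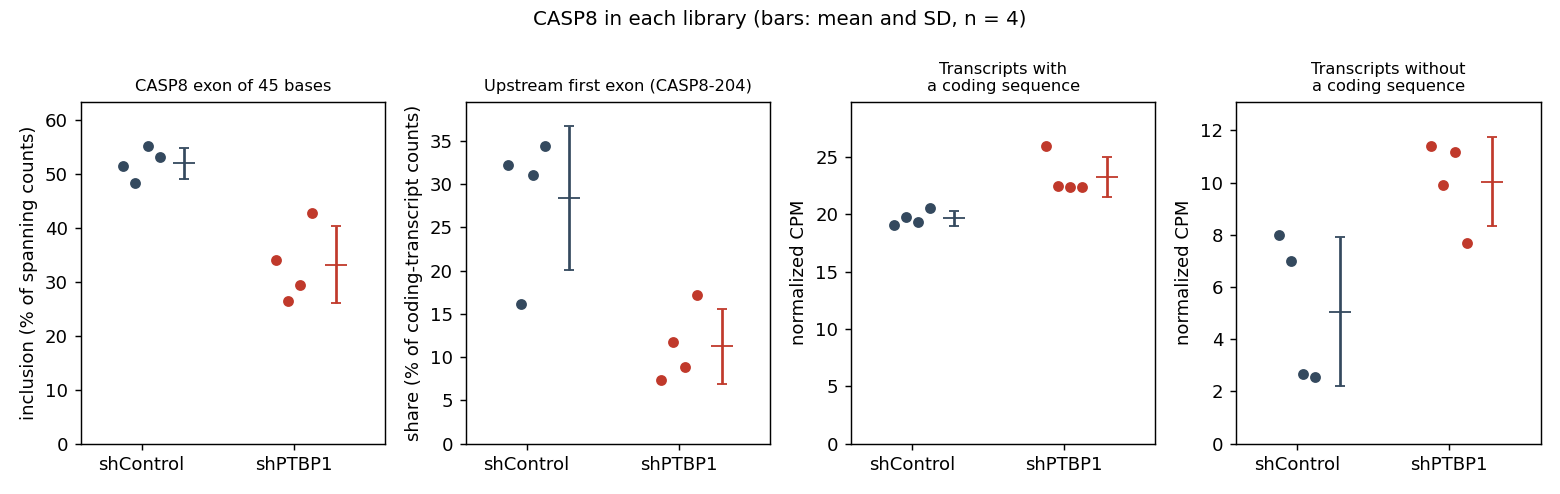
CASP8 in each of the 4 shControl and 4 shPTBP1 libraries, with mean and SD, on axes from 0: inclusion of the 45-base exon in percent of spanning counts, share of the upstream first exon in percent of coding-transcript counts, and levels of transcripts with and without a coding sequence in normalized CPM. Inclusion does not overlap between the groups, and the share of the upstream first exon overlaps.

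CASP10, the other death-receptor initiator, lies at chr2:201182872-201229428 and had too few counts to be tested. It had 3, 7, 10 and 2 counts with shPTBP1 and 6, 4, 4 and 5 with shControl, or 3.60 ± 2.46 CPM against 3.03 ± 0.525 CPM, and the groups overlapped. The ratio of the summed counts was 1.17, with a 95% interval of 0.606 to 2.29 for counting error only.

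CASP2 lies at chr7:143288215-143307696 and had 30, 39, 28 and 36 counts with shPTBP1. With shControl it had 66, 52, 53 and 51 counts. Every shPTBP1 library was below every control library, at 21.6 ± 3.48 CPM against 35.4 ± 3.61 CPM, and the gene fell by 0.72 on the log2 scale (SE 0.16, edgeR adjusted p = 0.0201). DESeq2 did not call it (adjusted p = 0.0547). The call was lost without shPTBP1 replicate 3 (adjusted p = 0.0720) and without shControl replicate 1 (adjusted p = 0.0546).

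Nearly all CASP2 counts were on CASP2-201 (ENST00000310447.10), which has 11 exons and a coding sequence of 1356 bases, with a share of 96.5% ± 2.53 with shPTBP1 and 97.7% ± 1.05 with shControl. In the test across transcripts, chosen after the values were seen, CASP2-201 fell by 0.75 on the log2 scale (SE 0.16, edgeR adjusted p = 0.0135). DESeq2 on transcripts also called it (adjusted p = 0.0125), and its call was lost without shPTBP1 replicate 3 (edgeR adjusted p = 0.0524). The annotated transcript that holds the 61-base exon, CASP2-206, had 0 counts in all 8 libraries. With 133 CASP2 counts under shPTBP1 and 222 under shControl, a count of 0 allows a share of up to 2.26% and 1.35%, for counting error only. A change below these limits was not detectable at this depth. Whether reads that held the exon were counted on another CASP2 transcript was not tested.

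CASP9 lies at chr1:15490832-15526534 and had 11, 5, 18 and 7 counts with shPTBP1 against 11, 18, 15 and 11 with shControl (log2 fold change -0.40, SE 0.38, edgeR adjusted p = 0.626). Nearly all of its counts were divided between CASP9-201, with a coding sequence of 1248 bases, and CASP9-202, whose coding sequence of 798 bases lacks 4 internal exons of 148, 90, 177 and 35 bases. CASP9-210, which also holds these exons, had 3 counts with shPTBP1 and 1 with shControl. The short CASP9 product without these exons is known to inhibit the full-length enzyme. The 4 exons, counted as 1 event because the same transcripts hold them, were included in 37.4% ± 29.6 of spanning counts with shPTBP1 and 47.2% ± 32.5 with shControl (exact permutation p = 0.629). Single libraries ranged from 0 of 5 counts to 14 of 18 counts, and the sign of the difference turned without shPTBP1 replicate 2 (2.76 points) and without shControl replicate 2 (0.476 points). From the summed counts of each group the difference was -0.310 points.

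APAF1, the scaffold of the apoptosome, lies at chr12:98645290-98735433 and was not tested. It had 13, 2, 7 and 9 counts with shPTBP1 and 13, 10, 6 and 7 with shControl, or 4.98 ± 2.87 CPM against 5.71 ± 1.83 CPM. The groups overlapped. The ratio of summed counts was 0.872, with a 95% counting interval of 0.522 to 1.45.

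CASP6, at chr4:109688622-109703583, had 29, 17, 26 and 25 counts with shPTBP1 and 38, 36, 31 and 35 with shControl. The groups did not overlap, at 15.7 ± 3.11 CPM against 22.4 ± 1.18 CPM, but the gene was not called (log2 fold change -0.51, SE 0.19, edgeR adjusted p = 0.143). CASP6-201 held 96.8% of its counts with shPTBP1 and 97.9% with shControl. MCUB is annotated on the opposite strand.

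CASP4, at chr11:104942866-104969366, was the most abundant of the 8 genes and had 147, 158, 155 and 143 counts with shPTBP1 and 180, 164, 169 and 134 with shControl. At 97.7 ± 6.41 CPM against 103 ± 12.2 CPM the groups overlapped (log2 fold change -0.08, SE 0.10, edgeR adjusted p = 0.717). CASP4-203 held 97.5% of its counts with shPTBP1 and 98.9% with shControl.

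Isoform usage across all genes could not be tested for these genes under the main filter. Of their 116 listed transcripts, 44 had counts and 5 passed the filter, 1 each in CASP2, CASP4, CASP6, CASP8 and CFLAR, so that no gene kept a second transcript to compare. Among all genes, 61 of 5464 isoforms were called (1.12%). With a minimum mean of 2 counts, 9 member transcripts were compared and 0 were called by diffSpliceDGE of edgeR after adjustment over 14529 transcripts. The 1 with an unadjusted p under 0.05 was CASP8-204. At that minimum 0.385% of all isoforms were called.

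Of the 49 other genes of the caspase pathways on the list examined, 45 had counts and 27 were tested. FADD fell and the other 26 did not pass the test, a share near the 3.19% of all genes called lower, and the list had a median log2 fold change of -0.02. FADD, the adaptor that brings CASP8, CASP10 and CFLAR to death receptors, had 57, 45, 56 and 68 counts with shPTBP1 and 81, 88, 82 and 103 with shControl. It was lower in all 4 shPTBP1 libraries than in any control library, at 36.5 ± 5.65 CPM against 56.6 ± 6.85 CPM, and fell by 0.63 on the log2 scale (SE 0.14) with an adjusted p of 0.0186 in edgeR and 0.0341 in DESeq2. The FADD call was lost without shPTBP1 replicate 2, without shPTBP1 replicate 3 and without shControl replicate 4.

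The 4 apoptosome partners tested, among them CYCS (cytochrome c, 78.6 ± 8.22 CPM against 78.5 ± 8.14 CPM), the 4 caspase inhibitors and the 8 caspase substrates tested did not pass the test. FAS, the death receptor whose sixth exon is a known target of PTBP1, had 3, 1, 2 and 6 counts with shPTBP1 and 3, 0, 3 and 1 with shControl and was not tested. Its splicing could not be examined at this depth.

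**Figure D4:**
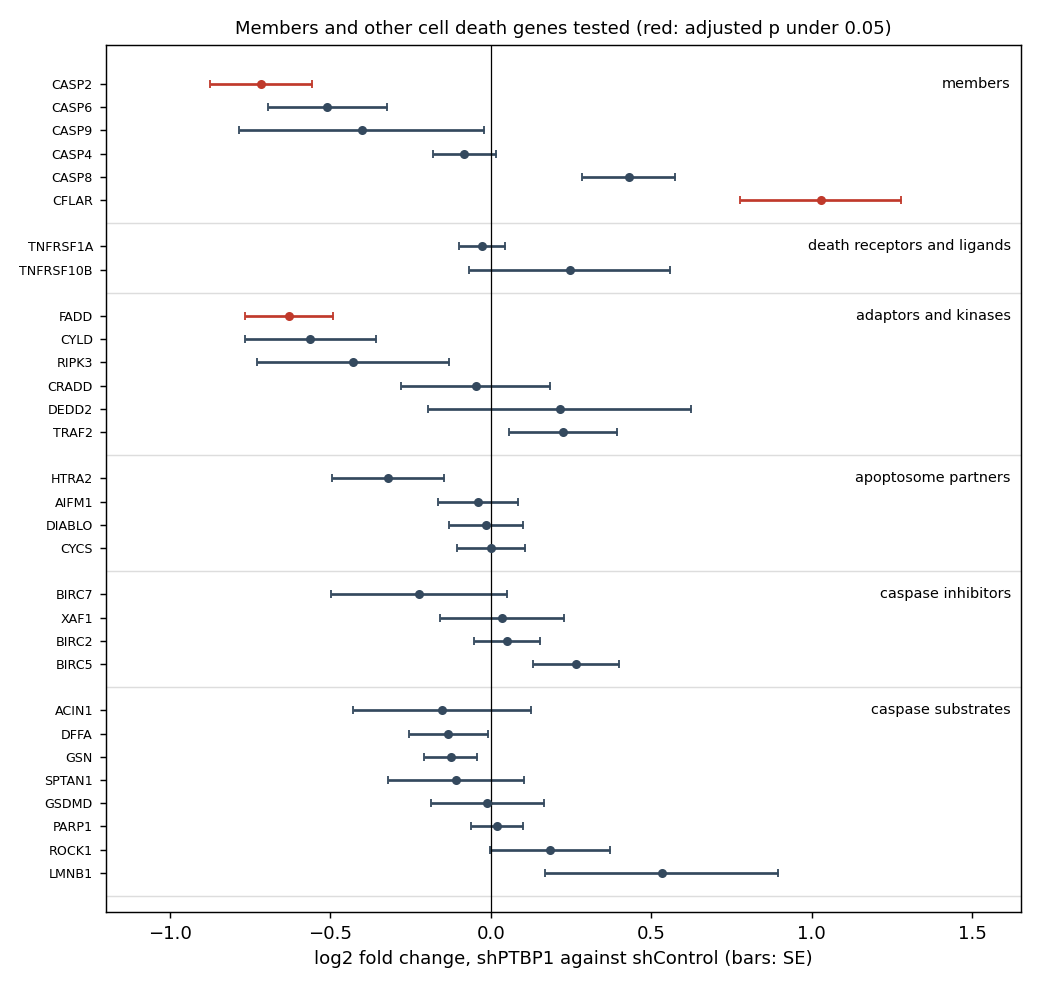
Log2 fold change with SE (horizontal axis, shPTBP1 against shControl) for the 6 of the 8 genes tested and for the receptors, adaptors, apoptosome partners, inhibitors and substrates tested, grouped by role. CASP2, CFLAR and FADD, in red, have an adjusted p under 0.05 in the edgeR fit across all genes.

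Of 16 regulators of caspase or FAS splicing, 15 were tested, 2 fell and 1 rose, where 3.19% of all genes tested were called lower and 2.36% higher. One of those that fell is the shRNA target, PTBP1. PTBP2, its paralog, rose from 1.45 ± 0.814 CPM to 124 ± 5.44 CPM, with counts of 194, 199, 190 and 185 with shPTBP1 against 1, 2, 2 and 4 with shControl (edgeR adjusted p = 2.14e-10). SRSF2, a serine and arginine rich splicing factor, fell by 1.42 on the log2 scale (SE 0.28, edgeR adjusted p = 0.0127), with counts of 29, 21, 53 and 54 with shPTBP1 against 72, 137, 79 and 138 with shControl. These changes moved with the group in the same libraries as the CFLAR and CASP2 changes, and their part in them was not tested.

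By the root mean square difference of mean-centred log2 CPM over the 8 libraries, the genes nearest to CFLAR were SERPINB10 (0.201), TSPYL4 (0.213) and CCDC26 (0.221). Those nearest to CASP2 were BCL10 (0.135), P4HA2 (0.136) and ID3 (0.138). These distances are a description over 7596 compared genes for each.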

How the data were processed

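RNA from 8 MOLM-13 libraries was sequenced as PCR-amplified nanopore cDNA. The authors used minimap2 for alignment to hg38, a mapping-quality filter and StringTie for counting transcripts; versions, annotation and use of strand are not given in the sources used here. The deposited transcript table holds raw whole-number counts. The second deposited table, named TPM, holds CPM (count over library total, per 1000000; equal within 1e-06) and was used only for that check. Transcripts were assigned to genes by identifier in GENCODE version 44, which held 252562 of 254070. The groups and replicate numbers came from the labels, and totals were 1528449 to 1613342 counts.

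Gene sums were tested with edgeR 4.0.16 (quasi-likelihood, filterByExpr with minimum count 10, TMM, R 4.3.3) and adjusted by Benjamini-Hochberg over all 7597 genes, with calls at an adjusted p under 0.05. Isoform usage was tested with diffSpliceDGE, with a share change of at least 10 points. An exon was examined where a mean of at least 10 counts spanned it and inclusion lay between 5% and 95%. Single values were compared with exact two-sided permutation tests, for which 4 against 4 libraries allow no p below 0.0286. For a count of 0 the limit was set at 3 counts, and this limit and all intervals reflect counting error alone. Within groups, squared differences between libraries were 1.89 to 3.65 times counting error, so no library is a copy of another. Scripts were tested on simulated data. DESeq2 1.42.0, limma 3.58.1, other filters, a replicate block and leaving out libraries were alternatives.

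The genes, lists and tests were chosen with earlier results of these data known. Named were the 8 genes, their transcripts with a share of at least 10% in genes with a mean of at least 10 counts, exons without overlap, called genes of the lists, FAS, and the 3 genes nearest to each called gene. The text also names CASP8-207, CYCS and CASP9 exons, and all other tests by transcript group, which were chosen after values were seen. Values of single genes in the list class of other caspases are not reported here. Sequences were read from hg38 at GENCODE exons.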

Additional observations from a re-analysis of the deposited data

Results flagged for a closer look

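In groups of 4 libraries, 57 were examined for 1 library far from the others, and 2 were found, when chance gives about 1 in 20. For CFLAR-205, shPTBP1 replicate 3 had a share of 17.1% of CFLAR counts (6 of 35) and the other 3 libraries of the group had 0%. For CASP8 transcripts with other first exons, shPTBP1 replicate 4 had a share of 8.57% of coding-transcript counts (3 of 35), and the nearest library had 2.94% (1 of 34).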

How the results depend on the processing

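Of the 8 genes, 2 were called in the main test. The number was 0 under DESeq2, 0 with a minimum mean of 50 counts, 1 with limma-trend on log2(CPM + 1) and 1 with log2(CPM + 0.25), 0 with the replicate block, and 0 to 2 when 1 library was left out. With DESeq2, CFLAR had no adjusted p, and with the minimum of 50 counts CASP2, CFLAR and PTBP1 were not testable. The replicate numbers did not pair the libraries (correlations of deviations from -0.0328 to 0.00889), and with the block the adjusted p was 0.0534 for CASP2 and 0.0667 for CFLAR. The log2 fold change kept its sign in every alternative, at -0.81 to -0.64 for CASP2 and 0.88 to 1.16 for CFLAR without 1 library, except that CFLAR turned to -0.15 when CFLAR-202 was left out. The number of caspase-pathway genes called lower was 0 to 1 without 1 library. The inclusion change of the 4 CASP9 exons was -19.5 to 2.76 points without 1 library and turned to 2.76 without shPTBP1 replicate 2 and 0.476 without shControl replicate 2. It was -0.310 points from the summed counts of each group. No transcript class of these genes was without overlap in the main setting, and 0 to 2 were without 1 library. The CASP8 exon stayed without overlap at -22.1 to -16.6 points without 1 library and with a minimum of 5 spanning counts or protein-coding transcripts only, but among transcripts with the first exon of CASP8-202 only, a setting chosen after seeing the data, it was -9.63 points with overlap. APAF1, CASP10 and FAS had too few counts to be tested. The cause of the lost calls was not tested.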
